A study of Mus musculus with 1479 samples.

Results

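Cluster 10 of the mouse urinary bladder is the group of cells that the study described as vascular mural cells. Its members were taken from the cluster number in the sample labels, which gave 125 of 1479 cells. Every cell is 1 sample with its own Smart-seq2 library, a method that copies whole transcripts and carries no molecular identifiers. All cells came from male mice of 10 to 20 weeks of age and were sorted singly into wells of 6 plates after dissociation with enzymes, with CD31-positive endothelial cells gated out.

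The 125 cells came from 4 mouse lines. Cspg4dsRED mice carry a transgene with a red fluorescent protein under Cspg4 control and gave 65 cells, 49 and 16 on its plates. PdgfrbGFP mice carry a green fluorescent transgene under Pdgfrb control and gave 45 cells from 3 plates (4, 20 and 21 cells). Acta2GFP mice carry a green fluorescent transgene under Acta2 control and gave 12 cells, and elastase was added to the dissociation for this line. C57BL6 mice without a reporter were sorted by antibodies and gave 3 cells. The 12 Acta2GFP and 21 of the PdgfrbGFP cells shared a plate. The fifth line, PdgfraGFP, with green protein from the Pdgfra locus, gave 0 of its 147 cells. The other 10 clusters hold fibroblasts by the study's account and comprised 1354 cells, 1207 of them in the 4 lines. Animals are not named in the labels and some mice combined several reporters, so taking the 4 lines as separate samples is an assumption. Values with ± are the mean and SD of 4 lines (n = 4) unless stated otherwise, where a line's value is the mean of its cells. The C57BL6 value rests on only 3 cells, and the counts of each gene list are also given without it.

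Mural cells sit on the outer side of the endothelial tube. Smooth muscle cells surround arteries and veins and set vessel diameter, through calcium-driven phosphorylation of myosin light chain, while pericytes lie along capillaries within the basement membrane they share with the endothelium. Notch3 and platelet-derived growth factor receptor beta are receptors through which endothelial cells recruit and maintain them.

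Endogenous reads per cell ranged from 50267 to 439747 with a median of 128369, and genes with a read ranged from 1524 to 8269 with a median of 3188. No cell of the series reached 10000 genes, the limit above which the study removed potential doublets. Levels of genes are given per length: reads per kilobase of exon, scaled so that all endogenous genes of a cell sum to 1000000. On this scale 8129 genes had a mean level of at least 10 in cluster 10, 1629 of at least 100 and 119 of at least 1000. The 100 genes with the highest levels held 34.7% of the total. Counts of the most abundant genes approached 1 read per base of exon, with medians over cells of 0.702 for Myl9 and 0.648 for Acta2, and the highest cell at 1.31 for Myl9. The methods state that doublets were removed with samtools without saying what was counted as one, and the part of that step in these levels was not tested.

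The 3 C57BL6 cells differed from each other widely. In reads per 500000 endogenous reads, Acta2 had 3589.6, 2042 and 4235, and Myh11 had 1372, 0 and 2905. Tagln had 989.7, 0 and 1382. Rgs5 had 73.3, 3274 and 0 and Abcc9 0, 1702 and 30.7, so that 1 cell held nearly all of both, and this cell had no read of Myh11 or Tagln. Its Emcn value was 644, and Emcn marks endothelium. Another of the 3 held 2532 for Dcn and 1736 for Ccl11. Some C57BL6 means below, such as those of Rgs5, Abcc9 and Ccl11, therefore rest almost wholly on 1 cell. Others were spread over all 3, such as Notch3 with 154, 404 and 391 and Ednra with 254, 392 and 281.

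The 6 genes that mark the cells were all found, but in different shares of them. Acta2, the smooth muscle alpha-actin, had a level of 11817 ± 3039 and ranked 2 among protein-coding genes of the nuclear genome. In single cells it ran from 594 to 27869 with a median of 13007. Tagln, which encodes the actin-binding protein transgelin, stood at 3791 ± 1190.0, and in single cells at 0 to 9902 (median 4200.4). Myh11, the smooth muscle myosin heavy chain, stood at 1329.9 ± 356, and in single cells at 0 to 4456 (median 1238). Mcam, an adhesion molecule of vessel walls, reached 823 ± 491, with 1328 in Acta2GFP, 169 in C57BL6, 775 in Cspg4dsRED and 1019.7 in PdgfrbGFP cells. Notch3 stood at 239 ± 46.9 and was the most even of the 6 between lines, with 309 in Acta2GFP, 207 in C57BL6, 219.8 in Cspg4dsRED and 220.2 in PdgfrbGFP cells. Rgs5, a brake on G protein signalling used as a pericyte marker, was the least even: its level was 605 ± 485, with 217 in Acta2GFP, 1302 in C57BL6, 345 in Cspg4dsRED and 558 in PdgfrbGFP cells. It was 265 without the 28 cells that held 10 or more reads of endothelial, immune, urothelial, glial or mesothelial markers, and 373 without C57BL6.

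In GRCm38 the 6 genes lie at chr19:34241090-34255590 (Acta2), chr9:45929619-45936058 (Tagln), chr16:14194535-14291372 (Myh11), chr9:44134469-44142727 (Mcam), chr17:32120820-32166852 (Notch3) and chr1:169655501-169695813 (Rgs5), and the exon lengths used for the levels include untranslated parts.

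Detection separated these markers further. After each cell had been reduced at random to 50000 reads, Acta2 had a read in 125 of 125 cells, Myh11 and Tagln in 124 each, Mcam in 114 and Notch3 in 105. Rgs5 had one in 59 cells, or 47.2% (exact 95% interval 38.2% to 56.3%, counting error only). In the cells of the other clusters the corresponding shares were 5.34% for Rgs5, 5.12% for Mcam and 3.78% for Notch3. The median Rgs5 level over the 125 cells was 4.82 and the highest 3836. Within sets of cells of 1 line and plate, the share with an Rgs5 read went from 25% of 12 Acta2GFP cells to 80% of 20 PdgfrbGFP cells on a single plate.

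Wider marker lists were also summed, as a description only. The cluster numbers rest on these expression values, and the vascular mural list shares Mcam, Notch3 and Rgs5 with the 6 markers. All 16 genes of the vascular mural list had reads, and their sum was 4346 ± 774 reads per 500000 endogenous reads against 399 ± 38.8 in the other clusters. Of 14 genes of visceral smooth muscle, the detrusor muscle of the bladder wall, 4 had no read in any of the 125 cells. They were Chrm2 and Tacr2, the muscarinic and tachykinin receptors of detrusor muscle, and the transcription factors Nkx2-3 and Barx1. Both factors were also near absent from the other clusters, with log2 differences of -0.0196 and 0. Chrm3 had 1 read in all. A count of 0 in 125 cells allows a share of cells with a read of up to 2.4% (3 counts of the total, counting error only, with cells of a plate taken as independent). The sum of the whole list was 2091 ± 829 reads per 500000 against 187 ± 11.8 in the other clusters, and 120 cells held 10 or more of its reads at 50000 reads. Des, Smtn, Actg2 and P2rx1 carried most of it, and Synm, Foxf1 and Adra1a had 2928, 735 and 598 reads in all. Vascular muscle can also use the first 4, and the sums of the 2 lists do not tell vascular from visceral muscle.

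Markers of endothelial, immune, urothelial, glial and mesothelial cells had few reads in most cells. Per 500000 reads, endothelial markers summed to 93.2 ± 96.5 against 62.3 ± 17 in the other clusters, and the highest cell of cluster 10 held 3360.2. The sums were 14 ± 10.2 against 17 ± 10.4 for immune, 9.75 ± 9.24 against 4.53 ± 3.32 for urothelial, 16.2 ± 13.1 against 34.5 ± 5.91 for glial and 16.1 ± 30.8 against 1.33 ± 1.01 for mesothelial markers. At 50000 reads, 9 cells held 10 or more endothelial marker reads, and 28 cells held 10 or more reads over the 5 lists. Cd52, Krt20, Trp63, Msln and Lrrn4 had no read. The 10 fibroblast markers summed to 1330.3 ± 768 reads per 500000, with a range over cells from 25 to 7280.3 (median 526), against 18016 ± 2879 in the other clusters. Of the 125 cells, 105 held 10 or more fibroblast marker reads at 50000 reads.

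Transcripts of the contractile apparatus and immediate early genes had the highest levels. The 15 protein-coding genes with the highest levels, mitochondrial and ribosomal protein genes aside, opened with Myl9, the regulatory light chain of smooth muscle myosin, at 12485 ± 3589, and Acta2. Then came Fos at 7784 ± 2855, Igfbp7, a secreted binding protein of insulin-like growth factors, at 6450.4 ± 1598, Actb, the cytoplasmic beta-actin, at 6068 ± 909, and Sparcl1, a secreted glycoprotein related to Sparc, at 5446 ± 2061. Nr4a1, Junb, Tagln, Gm20481, Rrad, Dstn, Btg2, Tpm2 and Zfp36 completed the 15 with levels between 2669 and 4864. Gm20481 overlaps Hspa1a on the opposite strand, and as the strand setting of the counting is not stated, its reads cannot be told from those of Hspa1a.

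**Figure D1:**
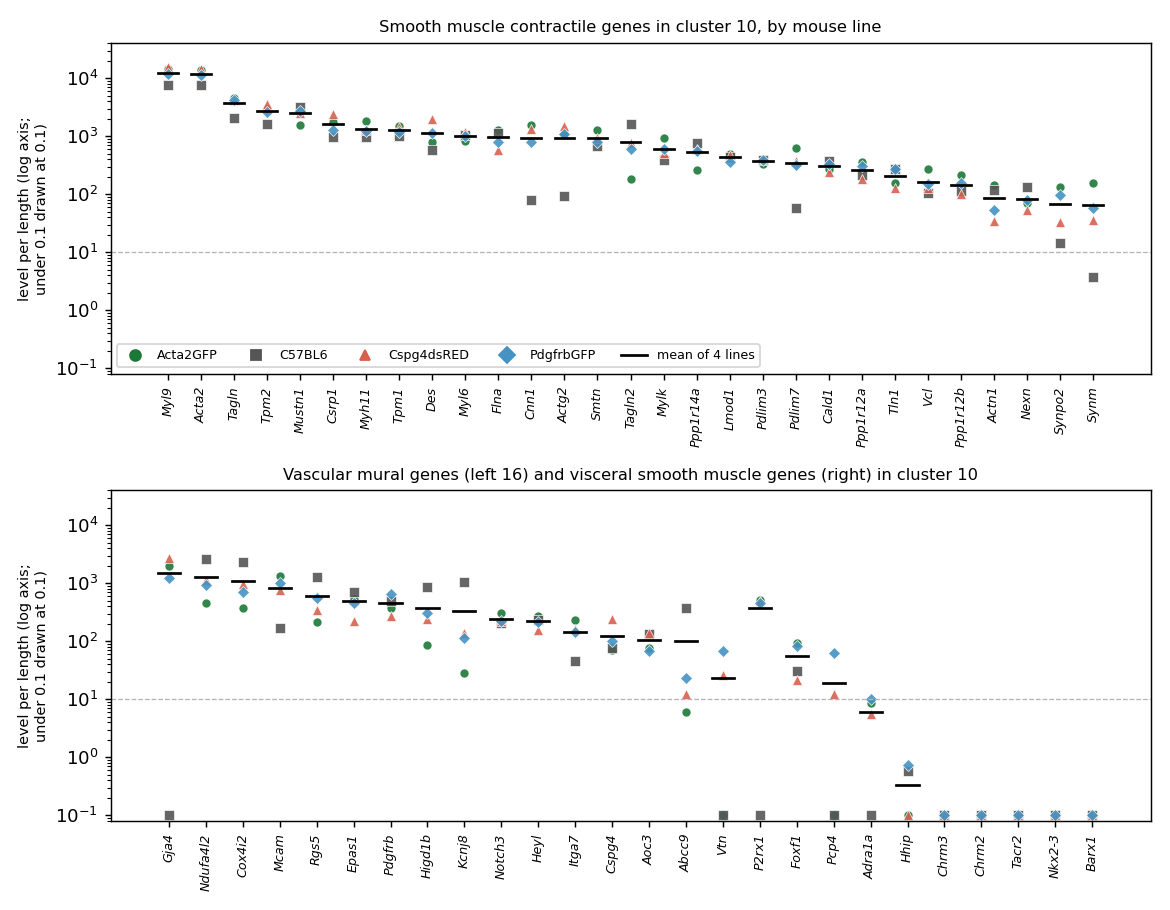
Level per length (log axis) of genes of the contractile list (top) and of the vascular mural and visceral smooth muscle lists (bottom) in cluster 10. Symbols are the means of the cells of 1 line, black lines the mean of 4 lines, the dashed line a level of 10. Myl9 and Acta2 stand at the top in every line, C57BL6 lowest (7636 and 7644), and Chrm2, Tacr2, Nkx2-3 and Barx1 are at 0, drawn at the lower limit.

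All 30 genes of the contractile list had a level of at least 10, and 26 of at least 100. Together they held 4.8% ± 1.04 of the per-length total, and 1.1% to 8.67% (median 5.14%) in single cells. The other clusters gave 0.333% ± 0.0265. A gene was counted as higher in cluster 10 when the mean over lines of its log2 difference in CPM (reads summed per line, scaled to 1000000, 1 added) was at least 2 and its sign was positive in 4 of 4 lines, and as lower in the mirror case. The rule was met by 2.87% of 14902 tested genes in the higher and 15.7% in the lower direction, and without C57BL6 by 5.33% and 13.3% of 14445. The cluster numbers themselves rest on these expression values, so the counts describe the cells and no p-value is given. The median difference of all tested genes was -0.78, and -0.28 without C57BL6.

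Of the 30 contractile genes, 25 were higher and 0 lower, and 28 and 0 without C57BL6, with a median difference of 3.49. Myh11 differed by 9.00 ± 0.92 (mean and SD of 4 lines on the log2 scale), Lmod1, a nucleator of actin filaments, by 7.94 ± 0.81 and Mylk, the kinase that phosphorylates myosin light chain, by 5.36 ± 0.72. Myl6, the essential light chain that most cells use, differed by 2.12 ± 0.34 and left the higher group under TMM scaling, as did Vcl. The 5 members that did not pass were Synm, Synpo2, Pdlim7, Tln1 and Tagln2.

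Levels within the list ran from 63.9 for Synm to 12485 for Myl9. Tpm2 and Tpm1, tropomyosins of the thin filament, stood at 2689 ± 842 and 1272 ± 233. Mustn1, a small muscle nuclear protein, reached 2507 ± 685 and Csrp1, a LIM-domain protein of actin bundles, 1616 ± 646. Des, the muscle intermediate filament desmin, stood at 1138 ± 629.9, Cnn1, calponin, at 944 ± 658 and Actg2, the gamma-actin of visceral muscle, at 942 ± 595. These SDs overlap, and Des, Cnn1 and Actg2 cannot be ranked among themselves. Cnn1 had 1566 in Acta2GFP, 80.9 in C57BL6, 1328 in Cspg4dsRED and 802 in PdgfrbGFP cells. Actg2 had 1092 in Acta2GFP, 92.9 in C57BL6, 1486 in Cspg4dsRED and 1095 in PdgfrbGFP cells. Both were thus lowest in the 3 C57BL6 cells.

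Regulators of myosin phosphorylation were present at lower levels. Mylk stood at 612 ± 235, Ppp1r14a, an inhibitor of myosin phosphatase, at 542 ± 205, and Ppp1r12a and Ppp1r12b, its targeting subunits, at 265 ± 79.3 and 146 ± 49. Ppp1r14a was lowest in the Acta2GFP line (262) and highest in C57BL6 (754), opposite to Mylk (939 and 391).

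Promoter sequences were searched for the CArG box, the sequence bound by serum response factor (CC, then 6 bases of A or T, then GG), which reads the same way on both strands. RefSeq promoters of GRCm38.p6 were used, 250 bases before and 50 after the start. The 30 contractile genes matched 29 promoters of 25 genes, and 3 of these held the box (10.3%). Actg2, Myh11, Tagln and Nexn were among the genes without a match. This compares with 1.63% of all 32851 promoters. Among the 428 genes higher in cluster 10, 299 matched and 18 of 425 promoters held it (4.24%). For the immediate early genes it was 5 of 22 promoters but 2 of 18 genes, Egr2 and Zfp36, since Egr2 has several annotated starts. The windows of the contractile genes and of Zfp36 and Egr2 are shown, since they are the members of both lists with the box, with 1 of 2 windows for Egr2. The box is in capitals and the sequence runs on the strand of the gene.
Myl9 (chr2:156775293-156775322, + strand): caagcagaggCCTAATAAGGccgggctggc
Myl6 (chr10:128493040-128493069, - strand): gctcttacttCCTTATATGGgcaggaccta
Vcl (chr14:20929161-20929190, + strand): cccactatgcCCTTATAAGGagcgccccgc
Zfp36 (chr7:28379267-28379296, - strand): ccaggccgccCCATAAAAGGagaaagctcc
Egr2 (chr10:67537787-67537816, + strand): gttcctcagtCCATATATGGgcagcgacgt
The box starts 161 bases before the start in Myl9, 50 in Myl6, 227 in Vcl and 58 in Zfp36. For Egr2, whose annotated starts differ, it starts 72, 73 or 133 bases before them. Levels of these genes in cluster 10 were 12485 ± 3589 for Myl9, 1011 ± 150.1 for Myl6, 163 ± 74.9 for Vcl, 2669 ± 891 for Zfp36 and 50.4 ± 37.4 for Egr2. The sequence TGGGAA, the core bound by the Notch partner Rbpj, was found on either strand in 27.3% of promoters of higher genes and in 25.6% of all, and in 8 of 29 contractile promoters, among them Acta2.

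None of 15 genes of the non-muscle cytoskeleton was higher or lower by the rule, with 1 lower without C57BL6. The list held 1.42% ± 0.11 of the total against 1.02% ± 0.051. Actb stood at 6068 ± 909 against 3228 ± 493, and Vim, vimentin, at 1536 ± 238 against 1336 ± 259.

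Families of paralogues showed which member carried the family. Of the per-length total of 6 actins, Acta2 held 57.7% ± 2.19, Actb 30.4% ± 4.43 and Actg2 4.25% ± 2.47, whereas in the other clusters Actb held 66.8% ± 0.81 and Acta2 4.12% ± 1.1. Myh11 held 96.9% ± 2.58 of the class II myosin heavy chains, and in the other clusters Myh10 held 62% ± 8.96. Tpm2 with 61.9% ± 5.59 and Tpm1 with 30.1% ± 2.76 took the tropomyosin total, while Tpm4, the non-muscle form, held 5.87% ± 1.49 against 63.3% ± 3.3 in the other clusters. Calponins were split between Cnn2, with 47.5% ± 22, and Cnn1, with 37.4% ± 17.2. Reads of near-identical stretches of paralogues, actins above all, may have been assigned to either gene.

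**Figure D2:**
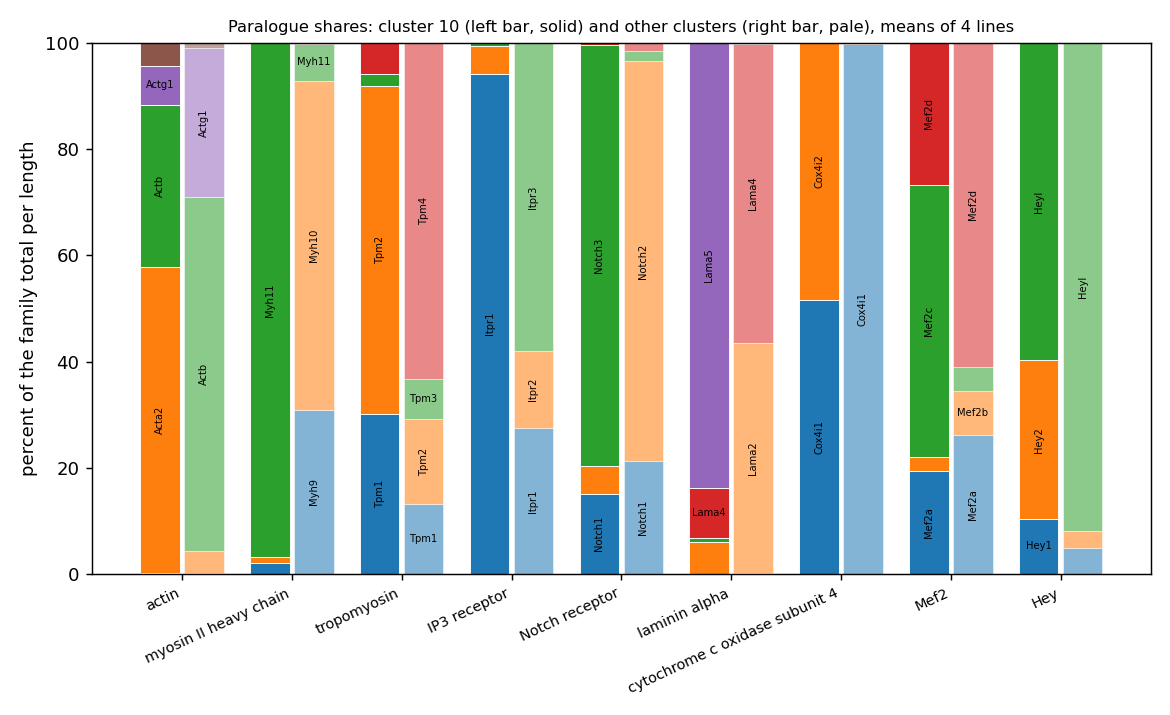
Share of the per-length family total held by each paralogue, as the mean of 4 lines, in cluster 10 (left bar, solid) and in the other clusters (right bar, pale). Myh11 fills 96.9% of its family in cluster 10 and Cox4i2 shares its family with Cox4i1, whereas Cox4i1 fills 99.9% in the other clusters.

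Calcium handling was carried by few genes. The list of 28 held 0.482% ± 0.0734 of the total, against 0.202% ± 0.045, and 7 of 26 tested members were higher and 1 lower, against 8 and 1 of 26 without C57BL6. Calm2, a calmodulin gene, had the highest level with 2231 ± 306. Pln, the inhibitor of the sarcoplasmic reticulum calcium pump, followed at 647 ± 329 and differed by 8.28 ± 1.04, with 851 in Acta2GFP, 155 in C57BL6, 777 in Cspg4dsRED and 804 in PdgfrbGFP cells. The pump itself was split between Atp2a2 with 56.7% ± 20.9 and Atp2a3 with 42.7% ± 21.7 of the family total. Among the calcium release channels, Itpr1 stood at 52 ± 44.1 and made up 94.3% ± 4.24 of the IP3 receptors, where the other clusters had 58% ± 8.05 Itpr3. Ryr2 reached 1.09 ± 0.659, and Ryr1 had no read.

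The voltage-gated calcium channel genes that were higher were each found in a minority of cells. Cacna1c, the pore of the L-type channel, stood at 8.68 ± 5.44 with a read in 41 of 125 cells at 50000 reads, and its partner Cacnb2 at 14.2 ± 16.2 in 21 cells. Cacna1h, a T-type pore, stood at 47.2 ± 40.4 in 30 cells. Itpr1 fell short of the rule without C57BL6 (difference 1.95), in which its level was 113.

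Potassium channels followed a different distribution. The list held 0.158% ± 0.095, and the C57BL6 value of 0.3% stood apart from the 0.102% to 0.117% of the other lines. Here 7 of 16 tested members were higher and 3 lower, against 10 and 3 of 16 without C57BL6. Kcne4, a channel beta subunit, had the highest level with 589.7 ± 211. Kcnj8 and Abcc9, pore and regulatory subunit of the ATP-sensitive channel of vessels, stood at 334 ± 485 and 102 ± 177. Kcnj8 had 28.4 in Acta2GFP, 1057 in C57BL6, 137 in Cspg4dsRED and 112 in PdgfrbGFP cells, and the median cell had none. At 50000 reads Kcnj8 was found in 26 cells and Abcc9 in 31, in 11 of them together. Abcc9 had 5.94 in Acta2GFP, 368 in C57BL6, 12.5 in Cspg4dsRED and 23.2 in PdgfrbGFP cells, so that C57BL6, where 1 cell held nearly all reads, carried its mean. Kcnj8 passed the rule and Abcc9, at -0.23 ± 2.56, did not. Kcnmb1, Kcna5 and Kcnab1, subunits of calcium- and voltage-gated channels, stood at 211 ± 191, 145 ± 118 and 71.2 ± 53.4. Kcnab1 had a read in 73 cells but none in C57BL6, and met the rule only without that line. Kcnma1, the pore that Kcnmb1 modulates, stood at only 9.58 ± 3.45.

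Among connexins, the proteins of gap junctions, 1 stood far above the others. Gja4 stood at 1491 ± 1165, with 2011 in Acta2GFP, 0 in C57BL6, 2722 in Cspg4dsRED and 1233 in PdgfrbGFP cells. The 3 C57BL6 cells had no read of it, while 101 of the 125 cells had one at 50000 reads. Gja1, the common connexin of fibroblasts, stood at 0.284 ± 0.378 and Gjc1 at 40.6 ± 23.5. P2rx1, the ATP-gated channel of smooth muscle, stood at 367 ± 246 and was likewise without a read in C57BL6, while the other 3 lines had 510.3, 501 and 458. Over the 21 channels of this list, 4 of 21 tested members were higher and 6 lower, against 6 and 6 of 21 without C57BL6. Ano1, the calcium-gated chloride channel, stood at 126 ± 58.9, with 150.4 in Acta2GFP, 182 in C57BL6, 44.2 in Cspg4dsRED and 129 in PdgfrbGFP cells. Trpv2, a cation channel, stood at 85.9 ± 33.7.

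**Figure D3:**
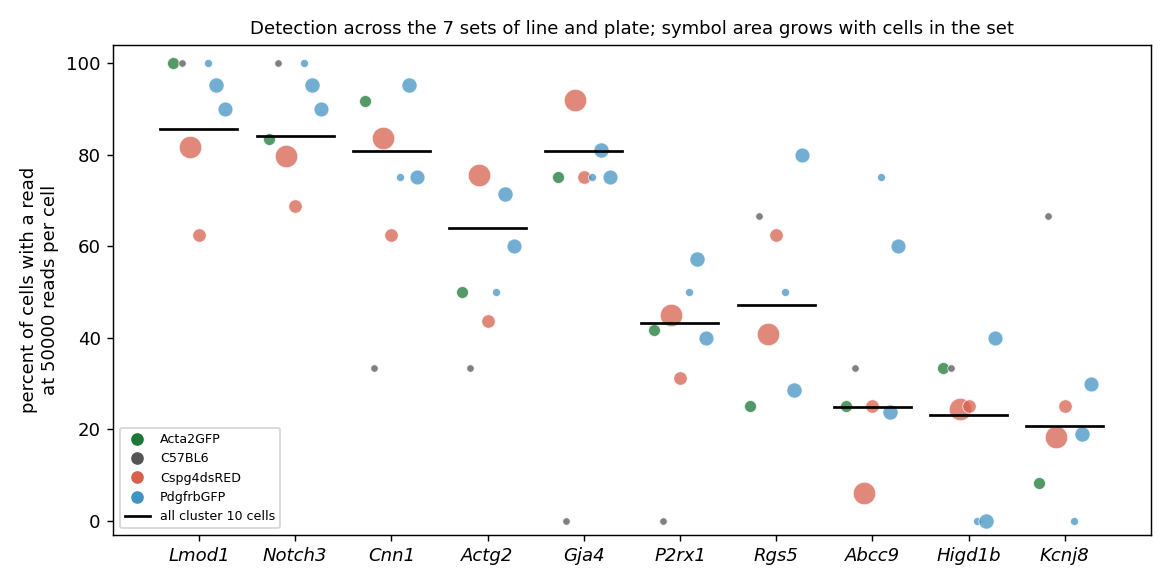
Percent of cluster 10 cells with a read at 50000 reads per cell for 10 genes. Each symbol is 1 of the 7 sets of line and plate, its area grows with the number of cells (3 to 49), and black lines give all 125 cells. Lmod1 and Notch3 were found in most cells of every set, while Rgs5 ranged from 25% to 80% and Gja4 and P2rx1 were at 0 in the 3 C57BL6 cells.

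Receptors for vasoactive signals held a like share in each line, 0.294% ± 0.00793, against 0.165% ± 0.0213 in the other clusters. Here 7 of 52 tested members were higher and 10 lower, against 9 and 9 of 53 without C57BL6, the lower share being near the 15.7% of all tested genes. Gpr20, an orphan receptor coupled to Gi, had the highest level with 512 ± 147. S1pr3, a receptor of sphingosine 1-phosphate, stood at 394 ± 161 and differed by 7.41 ± 0.67. Ednra, the endothelin receptor of vessel muscle, stood at 256 ± 40.6, with 256 in Acta2GFP, 291 in C57BL6, 199 in Cspg4dsRED and 279 in PdgfrbGFP cells, and made up 97.4% ± 5.19 of the endothelin receptors. Olfr558, an odorant receptor gene, stood at 182 ± 60.3 against 0.239 ± 0.212 and differed by 7.37 ± 0.32, the smallest spread between lines among the 4. Ramp1, the partner of the CGRP receptor, stood at 193 ± 85.6 and Npy1r, a receptor of neuropeptide Y, at 228 ± 147, the latter against 294 ± 89.3 in the other clusters.

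Several receptors of classical vasoconstrictors were near the limit of detection. Adra1a and Adra1d, alpha-1 adrenoceptors, stood at 6.06 ± 4.44 and 5.23 ± 6.97, with reads in 13 and 2 cells at 50000 reads. Agtr1a, the main angiotensin receptor, stood at 11.2 ± 18.7 and was read in 6 cells. Agtr1b, a second angiotensin receptor gene, and Avpr1a, a vasopressin receptor, had higher levels than these. Agtr1b met the higher rule only without C57BL6 (difference 3.47, against 2.15 with it), and Avpr1a met neither rule. Lhcgr, the receptor of luteinising hormone, met the higher rule at a level of 12.8 ± 11.8 in 7 cells. Tbxa2r, the thromboxane receptor, met it with 2.18 ± 0.97 but not without C57BL6 (1.92). Oxtr, Htr2b, Chrm2 and Tacr2 had no read.

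The pathway downstream of nitric oxide and G proteins held 0.462% ± 0.0602 of the total against 0.149% ± 0.00535. In this list 11 of 38 tested members were higher and 3 lower, against 12 and 2 of 38 without C57BL6. Rgs4, like Rgs5 a brake on Gq and Gi signals, stood at 1053 ± 287 and had the largest difference of all genes with at least 10 reads in each line, 9.18 ± 0.19. It was found in 106 cells against 59 for Rgs5, and by line its levels were 1096 in Acta2GFP, 699 in C57BL6, 1016 in Cspg4dsRED and 1399 in PdgfrbGFP cells. Gucy1a1 and Gucy1b1, subunits of the nitric oxide receptor, stood at 456 ± 126 and 268 ± 211, and Mrvi1, a target of the kinase Prkg1, at 214 ± 157. Gucy1b1 passed (2.72 ± 1.05), as did the less abundant subunit Gucy1a2 (2.24 ± 1.30, at a level of 16.4 ± 8.76, but 1.98 and not passing under TMM scaling), and Gucy1a1 did not (1.57 ± 0.42). Prkg1 itself stood at 34.6 ± 28.6. Pde3a, a cyclic nucleotide phosphodiesterase, stood at 167 ± 95.7, while Pde3b, Pde10a and Pde4d were lower than in the other clusters.

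Among growth factor and guidance receptors, 5 of 51 tested members were higher and 15 lower, against 6 and 14 of 51 without C57BL6. The higher members were Mcam, Notch3, Cspg4, Notch1 and Plxnd1. Pdgfrb, the receptor by which mural cells are recruited, did not pass: its level was 452 ± 169 against 202 ± 64.2, and it had a read in 101 of 125 cells with all reads used. By line it was 375 in Acta2GFP, 495 in C57BL6, 271 in Cspg4dsRED and 665 in PdgfrbGFP cells. Cspg4, the proteoglycan NG2, stood at 121 ± 78.9, with 69.5 in Acta2GFP, 75.6 in C57BL6, 238 in Cspg4dsRED and 102 in PdgfrbGFP cells. Each of these 2 genes was thus highest in the line whose reporter is under its control, and the sort selects cells by that reporter. Acta2 was not highest in the Acta2GFP line (13812 against 14310.4 in Cspg4dsRED cells). Notch3 held 79.3% ± 6.99 of the Notch receptors, and in the other clusters Notch2 held 75.4% ± 7.97.

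Secreted signals had larger shares of both higher and lower members than all tested genes, of which 2.87% were higher and 15.7% lower. More members were lower than higher, as among all tested genes. Of the list of 75, 7 of 67 tested members were higher and 24 lower, against 14 and 23 of 67 without C57BL6. Igfbp7 had the highest level with 6450.4 ± 1598 against 4190.0 ± 1461, and Ccn1, a matricellular protein, followed at 2155 ± 822 against 2172 ± 287. Angpt2, the ligand that loosens the contact of endothelium and mural cells, stood at 315 ± 278 and differed by 7.98 ± 1.34, with 202 in Acta2GFP, 729 in C57BL6, 129 in Cspg4dsRED and 201 in PdgfrbGFP cells. Pdgfa stood at 206 ± 86, Fgf1 at 132 ± 91.5 and the Notch ligand Jag1 at 46.5 ± 17.4. Il34 and Pgf, at 260.0 ± 201 and 284 ± 185, met the rule only without C57BL6. Ccl11, a chemokine, had 2345 in C57BL6, where 1 of 3 cells held all of its reads, and at most 51.5 in the other lines.

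Basement membrane genes held a share like that of the other clusters, 0.853% ± 0.144 against 0.947% ± 0.178. Here 2 of 24 tested members were higher and 10 lower, against 3 and 10 of 24 without C57BL6. Most of the share was Sparcl1 and Sparc, at 5446 ± 2061 and 1804 ± 384 against 3007 ± 747 and 4800.4 ± 1156, and neither passed the rule. Lama5 was the laminin alpha chain of these cells, with 162 ± 135 and 83.8% ± 4.13 of its family, against 0.148 ± 0.0644 in the other clusters, where Lama4 held 56.5% ± 7.09. Lamb2 held 98.1% ± 1.04 of the beta chains. Col4a2 and Col4a1, the common type IV collagen chains, stood at 199 ± 186 and 109 ± 29.4, and neither passed the rule. Agrn, agrin, stood at 44.2 ± 16.5 and was higher.

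Interstitial matrix and elastic fibre genes were lower. In the first list 21 of 25 members were lower and 0 higher (20 and 0 without C57BL6), and it held 0.424% ± 0.136 of the total against 2.84% ± 0.51. In the second 16 of 20 were lower and 1, Ltbp1, which stores TGF-beta in the matrix, was higher at 281 ± 101 (14 and 1 without C57BL6), a call that was lost under TMM scaling (difference 1.97). Bgn, biglycan, stood at 991 ± 178 and Mgp, matrix Gla protein, at 934 ± 557, the 2 highest of the interstitial list. Eln, elastin, stood at 57.8 ± 16 against 178 ± 48.1. Dcn, decorin, ranged over cells from 4.55 to 2251 with a median of 64.8.

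Reads of fibroblast genes in cluster 10 were set beside a rate for neighbouring wells. On each plate, Myh11 reads in cells of the other clusters came to between 0.0330% and 1.66% of the Myh11 reads summed over the cluster 10 cells in the same row or column as each of them. Myh11 made by those cells themselves is included in it. Applied to the fibroblast reads in the row and column of each cluster 10 cell, it gave 61066 reads of the 10 fibroblast markers, and 48494 were found. For 8 of the 10 genes the rate gave at least as many reads as were found. For Dcn it gave 81.6% and for Col1a2 89.3% of them. The part of such reads in the matrix levels was not tested.

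Adhesion to the matrix gave 0.28% ± 0.0551 against 0.173% ± 0.0228, and 7 of 31 tested members were higher and 3 lower, against 8 and 3 of 31 without C57BL6. Ilk, integrin-linked kinase, and Itgb1, the common integrin beta chain, had the highest levels with 607 ± 193 and 585 ± 294, and neither passed. Itga7, a laminin-binding integrin chain of muscle, stood at 147 ± 77.7 and differed by 7.40 ± 1.44, Itga8 by 7.26 ± 1.29 and Itga1 by 4.27 ± 0.90. Dmd, dystrophin, stood at 33.2 ± 21.3 and Cdh6 at 24.4 ± 8.82, both higher. Sgca, alpha-sarcoglycan, had 638, 698 and 364 in the reporter lines and no read in C57BL6.

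Transcription factors of smooth muscle and mural cells held 0.754% ± 0.0675 of the total against 0.398% ± 0.029. Of 56 tested, 12 were higher and 10 lower, and 19 and 8 without C57BL6. Id3, an inhibitor of DNA binding, stood at 1680.3 ± 300.2 and Hes1, a Notch target, at 1004 ± 492. Epas1, the hypoxia-inducible factor 2 alpha, stood at 485 ± 199.9 and differed by 4.52 ± 0.22. Myocd, myocardin, the partner of serum response factor at contractile genes, stood at 235 ± 119 against 1.32 ± 0.936, with 346 in Acta2GFP, 67.7 in C57BL6, 248 in Cspg4dsRED and 277 in PdgfrbGFP cells. Heyl and Hey2, also Notch targets, stood at 221 ± 49.7 and 113 ± 67.4, and Hey2 made up 29.9% ± 13.8 of its family against 3.12% ± 2.56. Mef2c stood at 80.4 ± 39.8 and Foxs1 at 261 ± 155, the latter in 28 cells. Srf itself stood at 28 ± 27.3 against 8.73 ± 2.21 and did not pass, except without C57BL6 (difference 2.06). Tcf21, Pparg, Tbx18 and Gata6 were among those lower. Nr2f2 and Ebf1 met the higher rule at 2.08 and 2.12, close to its limit of 2, and not without C57BL6.

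Immediate early genes were among the most abundant transcripts and uneven between lines. The list held 3.43% ± 1.59, with 5.11% in Acta2GFP, 1.28% in C57BL6, 3.59% in Cspg4dsRED and 3.74% in PdgfrbGFP cells, and the other clusters held 1.58% ± 0.264. In single cells it ranged from 0.0422% to 9.05% (median 3.65%). Fos had a read in every cell at 50000 reads. Nr4a1, an orphan nuclear receptor, stood at 4864 ± 3142, with 7751 in Acta2GFP, 417 in C57BL6, 6019.7 in Cspg4dsRED and 5269.9 in PdgfrbGFP cells. Of 22 tested, 5 were higher and none lower, namely Zfp36, Atf3, Socs3, Nr4a2 and Fosl2, and 6 without C57BL6. Among these Zfp36, which promotes the decay of cytokine mRNA, stood at 2669 ± 891 against 512 ± 106, and Atf3, a stress-induced factor, at 2177 ± 1571 against 315 ± 88.2. Fos differed by 1.11 ± 0.31 and Egr1 by 0.42 ± 0.07, below the limit of 2.

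Heat shock genes held 0.808% ± 0.235 against 0.461% ± 0.145. Hspa1a stood at 1663 ± 1105, with only 58.5 in C57BL6. Cryab and Hspb6, small heat shock proteins of muscle, were the members that were higher, at 785 ± 427 and 409 ± 165 (3 members without C57BL6). The part of the dissociation in these levels was not tested.

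Genes of energy metabolism were grouped in 3 lists. Nuclear genes of the respiratory chain and mitochondria held 1.1% ± 0.346 against 0.502% ± 0.166, and 2 of 24 were higher and 0 lower (1 and 0 without C57BL6). Cox4i2, the hypoxia-linked form of cytochrome c oxidase subunit 4, stood at 1093 ± 863 against 0.943 ± 0.637 and made up 48.3% ± 6.5 of the pair with Cox4i1, against 0.135% ± 0.0885. Ndufa4l2, another hypoxia-linked subunit, stood at 1302 ± 956 against 290.2 ± 109, and did not pass without C57BL6 (difference 1.84). Both were highest in C57BL6, at 2336 and 2666, and lowest in Acta2GFP, at 371 and 449.6. They were found in 71 and 78 cells, and together in 56.

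Glycolysis and glucose uptake held 0.523% ± 0.0944 against 0.272% ± 0.0237, with 1 member higher and 1 lower of 24, and 2 and 1 without C57BL6. The higher member was Slc16a7, a monocarboxylate transporter, at 8.17 ± 4.21 against 0.139 ± 0.152. Aldoa, the aldolase of muscle, stood at 1588 ± 332 and was found in every cell. Slc2a4, the insulin-responsive glucose transporter, stood at 399 ± 289.7 against 2.08 ± 2.59, with 674, 529 and 394 in the reporter lines and no read in C57BL6, and passed the rule only without that line. It had a read in 87 cells. Of the metabolism list with fatty acid and creatine genes, 3 of 33 tested members were higher and 8 lower, against 4 and 10 of 33 without C57BL6. Mgst3, a microsomal glutathione transferase, stood at 654 ± 242 against 33.8 ± 20.8, and Aoc3, the vascular amine oxidase, at 103 ± 36.3. Fabp4, a fatty acid binding protein, was the other higher member at 77.2 ± 130.1, with 2.05 in Acta2GFP, 272 in C57BL6, 15.1 in Cspg4dsRED and 19.6 in PdgfrbGFP cells. Ckb, the creatine kinase of brain and smooth muscle, stood at 1227 ± 645 and did not pass (1.36 ± 1.23).

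**Figure D4:**
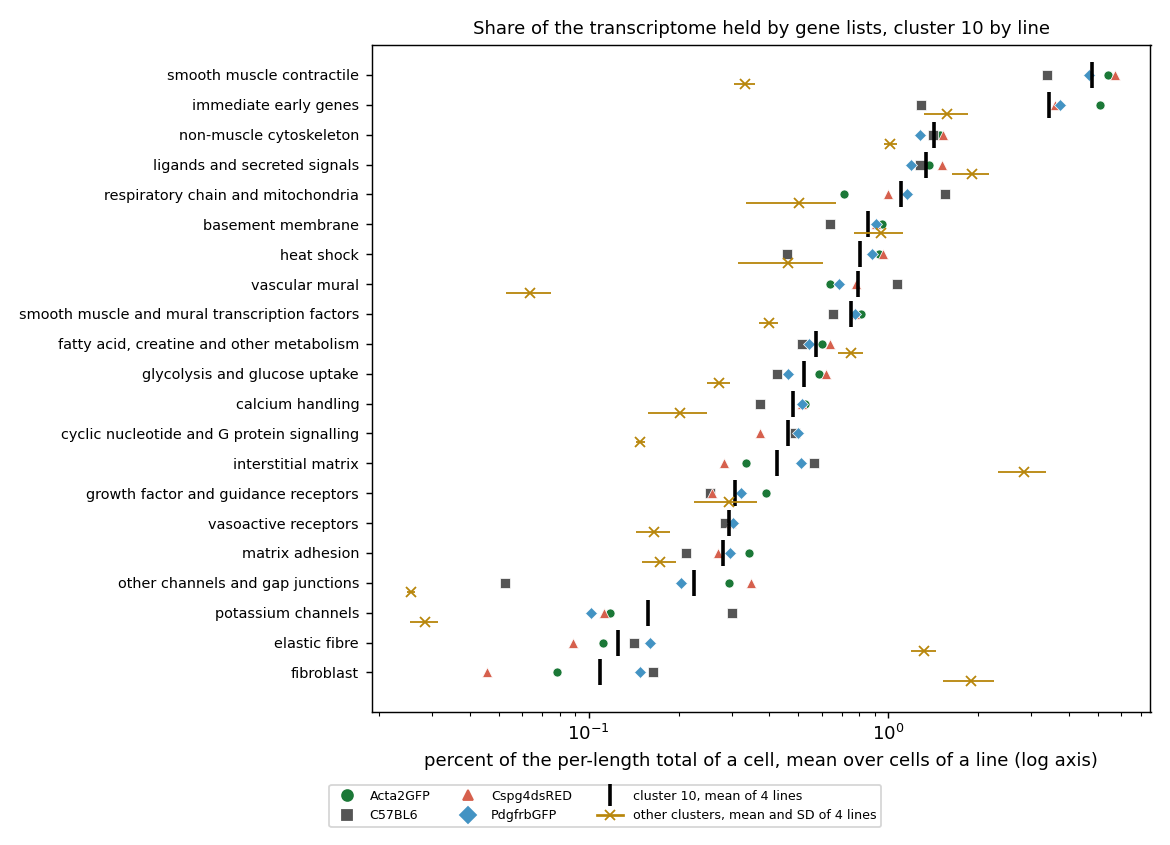
Percent of the per-length total of a cell (log axis) held by 21 gene lists. Symbols give the mean of the cluster 10 cells of 1 line, black bars the mean of 4 lines, and crosses with bars the mean and SD of 4 lines in the other clusters. The contractile list lies at 4.8% against 0.333%, the interstitial matrix list at 0.424% against 2.84%.

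**Figure D5:**
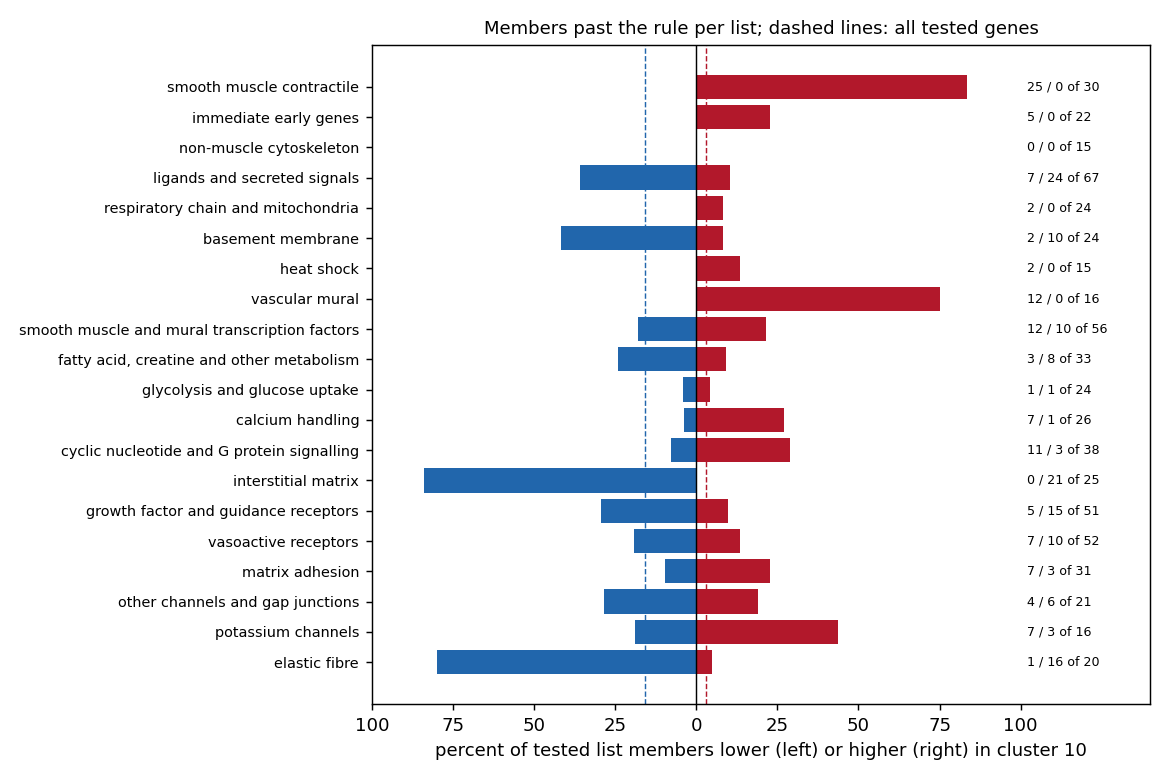
Percent of the tested members of 20 gene lists that were higher (right) or lower (left) in cluster 10 by the rule of a mean log2 difference of at least 2 with 1 sign in 4 of 4 lines. The numbers at the right are the counts, and dashed lines mark 2.87% and 15.7% of all tested genes.

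The 10 genes with the largest differences and at least 10 reads in each line were Rgs4, Myh11, Tinagl1, Mcam, Sncg, Lama5, Pcp4l1, Notch3, Pln and Sorbs2, from 9.18 to 8.24. Tinagl1, a secreted matricellular protein, stood at 1105 ± 443, Sncg, gamma-synuclein, at 2301 ± 544 and Pcp4l1, a small protein related to a calmodulin regulator, at 2505 ± 1094. By line, Tinagl1 had 1436 in Acta2GFP, 501 in C57BL6, 1437 in Cspg4dsRED and 1046 in PdgfrbGFP cells, and Sncg had 1723 in Acta2GFP, 1959 in C57BL6, 2674 in Cspg4dsRED and 2847 in PdgfrbGFP cells. Sorbs2, an adaptor of actin and focal adhesions, stood at 169 ± 74.2. Lama5 contains a microRNA gene on its own strand. Mcam, Notch3, Pln and Sorbs2 overlap another annotated gene on the opposite strand, as do Tagln, Igfbp7, Angpt2 and Ndufa4l2, and without a stated strand setting reads of the overlap cannot be told apart.

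Cells of cluster 10 were also compared with the other cells of their line and plate in RNA content, a measure that the gene lists do not use. The log2 ratio of endogenous to spike-in reads was lower by 0.64 ± 0.41 (lower in 4 of 4 lines, n = 4, exact sign-flip permutation test over lines, two-sided p = 0.125). Genes with a read at 50000 reads were fewer by 540 ± 262 (4 of 4 lines, n = 4, exact permutation p = 0.125), with medians by line averaging 2674 ± 767 against 3214 ± 659. With means over cells in place of medians they were fewer by 282. The mitochondrial share was higher by 0.705 ± 0.524 percentage points (4 of 4 lines, n = 4, exact permutation p = 0.125), at 2.02% ± 0.570 against 1.32% ± 0.194, and by 0.456 points without C57BL6. With 4 lines the smallest p this test can give is 0.125, also after adjustment over the 3 tests. Fewer transcripts per cell and poorer capture cannot be told apart here.

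The spread between cells was divided into parts between and within sets of line and plate. Over 118 cells of the 5 sets with at least 10 cells, the median share of the variance of log2(CPM + 1), at 50000 reads per cell, that lay between sets was 6.70% over the 8129 genes with a level of at least 10. Only 303 protein-coding genes had a read in at least 100 cells at that depth, so for most genes the spread within sets includes cells with no read. The share was 39.7% for Acta2, 38.1% for Myl9, 49.4% for Actb and 41.8% for Igfbp7. Of the fibroblast genes, Dcn had 60%. Notch3, at 3.14%, and Rgs4, at 9.77%, had lower shares. Some variance falls between 5 sets even where the sets do not differ, and this part was not subtracted from any of these shares. Only 17 protein-coding genes outside the mitochondrial genome had a read in every one of the 125 cells at 50000 reads, among them Myl9, Acta2, Tpm1, Tpm2, Myl6, Flna, Sparc, Sparcl1, Igfbp7 and Fos.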

How the data were processed

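Read counts of 125 cluster 10 cells and 1354 other cells, single Smart-seq2 libraries from mouse bladder, were analysed on 46517 genes and 92 ERCC spike-ins. Values were raw counts per gene, as deposited by the authors: their methods name bcl2fastq, trim galore, TopHat2 on GRCm38, samtools, for the removal of doublets, which are not defined further, and featureCounts. The annotation release and strand setting are not given in the sources used here. The authors removed cells of at least 10000 genes and cells with endothelial or immune signatures, and no doublet caller was run here. Small libraries and cells not expressing either Pdgfra or Pdgfrb were also removed by the authors, so Pdgfrb took part in choosing the cells.

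Symbols, exon lengths and biotypes came from GENCODE M21; 512 identifiers did not match and held 0.209% of cluster 10 reads. Per-length levels used the union of exons. Genes were compared on sums per line in CPM, with a mean of at least 1 over the 8 sums required. The rule for higher and lower genes was also run on simulated sums with known differences, and its outcome is not reported here. Cells were thinned to 50000 reads; 6 cells of other clusters were shallower. Intervals are Clopper-Pearson. Tools were Python 3.11.15, numpy 2.4.6, scipy 1.17.1, R 4.3.3 and edgeR 4.0.16 (TMM alternative only).

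The members and the gene lists were chosen with earlier results of these data known. Named were the 6 markers, the 15 protein-coding genes of highest level, the 6 highest members and the higher members of each list, paralogue families and the 10 largest differences; others are given for context and were chosen after their values were seen. Alternatives were other averages, scalings, lengths, filters, pseudocounts, thinning and leaving out lines. C57BL6 rests on 3 cells. Some list members enter the counts and shares but are not reported here by name.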

Additional observations from a re-analysis of the deposited data

Results flagged for a closer look

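Of 50 values checked over the 4 lines (levels of the markers and of the genes with the highest levels, shares of the lists and the differences in RNA content), 10 had 1 line far from the other 3, with a gap beyond Dixon's 95% limit. Chance gives about 1 in 20 for independent values of equal precision. These values overlap, and C57BL6 means of 3 cells are less precise, so that rate cannot be set against the 10. The C57BL6 line, with 3 cells, was the one apart in 7 of the 10. Its levels were low for Sparcl1 (2379 in C57BL6 against 6135 to 6769 in the other lines) and Tagln (2027 in C57BL6 against 4215 to 4635 in the other lines). Its list shares, in percent of the per-length total, were low for calcium handling (0.372 in C57BL6 against 0.515 to 0.525 in the other lines), basement membrane (0.639 in C57BL6 against 0.91 to 0.954 in the other lines) and heat shock (0.458 in C57BL6 against 0.885 to 0.958 in the other lines). They were high for potassium channels (0.3002 in C57BL6 against 0.102 to 0.117 in the other lines) and mesothelial markers (0.00982 in C57BL6 against 0 to 0.000108 in the other lines).

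In the larger lines, Igfbp7 stood apart with a level of 8842 in Cspg4dsRED against 5539.8 to 5795 in the other lines, and the list of cyclic nucleotide and G protein signalling with a share of 0.372 in Cspg4dsRED against 0.486 to 0.501 in the other lines. Notch3 was high with 309 in Acta2GFP against 207 to 220.2 in the other lines.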

How the results depend on the processing

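Leaving out 1 line at a time gave 477 to 770 higher and 1921 to 3186 lower genes, against 428 and 2347. The 770 came without C57BL6, of which 377 were among the 428. A pseudocount of 5 gave 1096 lower genes, sums per set of line and plate 1189. TMM scaling gave 360 higher and 2769 lower genes, with a median difference over all genes of -0.98 and without Zfp36, Ndufa4l2, Myl6, Hes1, Nr4a2, Ltbp1, Thbs1, Heyl, Tbxa2r, Atp2a3, Vcl, Nr2f2, Ebf1, Igfbp5, Itpr1, Gjc1, Acta1, Gucy1a2 and Cdh2 among the higher list and family members, and median-of-ratios scaling 491 and 2120, with -0.63. Scaling over protein-coding genes only, added after seeing the data, raised Acta2 to 15219.6, Myh11 to 1713 and Notch3 to 309, and the shares of contractile, calcium handling and basement membrane genes to 6.17%, 0.612% and 1.09%. All protein-coding genes rise in the same proportion within a cell under this setting. Leaving out lines, Acta2 ranged from 10986 to 13208, Rgs5 from 373 to 735 and Notch3 from 216 to 249.5. No difference in RNA content changed sign under the alternatives run for it. For the 12 marker levels and main list shares, the other alternatives moved no value by more than the SD between lines, which is wide for Rgs5: without cells holding other markers it was 265 against 605. Counts near 1 read per base limit the levels of abundant genes if duplicate reads were removed, and rare transcripts by the depth of 50000 reads. Lines and plates are partly crossed, but line, sort and dissociation cannot be told apart.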

Other observations

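Within sets of at least 10 cells, contractile and vascular mural lists, which share no gene, went against each other in 4 of 5 sets. Spearman's rho across cells was -0.490, -0.457, -0.456 and -0.594 in sets of 12, 49, 16 and 20 cells, and 0.153 in the set of 21 PdgfrbGFP cells. Shares of 1 total constrain each other, and cells of a set share a plate, so these are descriptions. For single genes, chosen after their values were seen, Rgs5 and Acta2 gave rho from -0.760 to -0.149 and Cnn1 and Actg2 from 0.265 to 0.631 over the 5 sets. Other pairs went both ways between sets, with -0.676 to 0.477 for Rgs5 and Myh11, -0.350 to 0.480 for Kcnj8 and Acta2, -0.645 to 0.450 for Abcc9 and Acta2, and -0.173 to 0.367 for Cspg4 and Acta2. At 50000 reads 72 cells had reads of both Cnn1 and Actg2, 29 of Cnn1 only, 8 of Actg2 only and 16 of neither. Rgs5 and Cnn1 were found together in 41 cells, Rgs5 without Cnn1 in 18, Cnn1 without Rgs5 in 60 and neither in 6. Contractile and basement membrane lists gave rho from -0.0140 to 0.617, and immediate early and heat shock lists from 0.0500 to 0.501.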
